A study of Mus musculus with 4 samples.

Results

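The Nr4a orphan nuclear receptors Nr4a1, Nr4a2 and Nr4a3 were examined in olfactory bulb RNA of mice that carry either form of the edited Unc80 codon. They were picked by symbol from a table of 15818 genes, because their measured means had already been seen to differ between the genotypes in these same libraries. Their levels and ratios are therefore selected on the readout and are given as a description, with no test.

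Nr4a proteins are transcription factors of the nuclear receptor superfamily whose activity follows mainly from how much of them a cell makes, since their ligand pocket is largely closed and no classical hormone is established for them. Their genes belong to the immediate-early class and are switched on by calcium and cAMP signals, through CREB and other factors, when neurons fire. Nr4a1 (Nur77) and Nr4a2 (Nurr1) can bind DNA together with retinoid X receptors, which Nr4a3 (Nor1) is not known to do. In the olfactory bulb, Nr4a2 is known for its presence in dopaminergic periglomerular cells.

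RNA came from the olfactory bulbs of male mice aged 2 to 5 months, and each genotype was sequenced as 2 libraries. The study describes samples pooled from 3 mice each and gives a number per genotype larger than its libraries, which is read here as 2 pools of 3 mice, a reading that the labels do not settle. Unc80 G/G libraries (labelled edited) carried a CRISPR/Cas9 knock-in that turns the edited serine codon into a glycine codon. Unc80 S/S libraries (labelled unedited) carried a silent change at that codon, which keeps the serine and cannot be edited. Both lines were made in zygotes, no wild-type library was analysed here, and the sources do not say whether these mice had met an odor before the bulbs were taken. Sequencing depth was 35465913 and 35694633 total reads in the Unc80 G/G libraries and 35800890 and 38051810 in the Unc80 S/S libraries. The deposited table holds 1 mean per genotype in CPM (reads of a gene scaled to a fixed total of counted reads). Markers of bulb tissue were present at like levels: Gad1, an enzyme of GABA synthesis, had 1606 CPM in Unc80 G/G and 1619 CPM in Unc80 S/S. Eomes, a mitral and tufted cell factor, had 133 CPM in Unc80 G/G and 139 CPM in Unc80 S/S.

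In the GENCODE M21 annotation of GRCm38 the 3 genes lie on different chromosomes and each encodes protein. Nr4a1 (ENSMUSG00000023034) is a plus-strand gene of chromosome 15, from 101254269 to 101274795. Nr4a2 (ENSMUSG00000026826) is a minus-strand gene of chromosome 2, from 57106830 to 57124003. Nr4a3 (ENSMUSG00000028341) is a plus-strand gene of chromosome 4, from 48045153 to 48086447. The longest coding transcript of each has 8 exons. The sequences before the transcript start are shown because genes of this family are known to respond to calcium and cAMP signals. Capitals mark the 5 letters TGACG, the core of the cAMP response element (CRE) to which CREB binds, on either strand. All runs are read 5′ to 3′ on the gene's own strand and come from RefSeq, GRCm38.p6.
Nr4a1, chr15:101266596-101266845, inside the annotated gene but outside its exons: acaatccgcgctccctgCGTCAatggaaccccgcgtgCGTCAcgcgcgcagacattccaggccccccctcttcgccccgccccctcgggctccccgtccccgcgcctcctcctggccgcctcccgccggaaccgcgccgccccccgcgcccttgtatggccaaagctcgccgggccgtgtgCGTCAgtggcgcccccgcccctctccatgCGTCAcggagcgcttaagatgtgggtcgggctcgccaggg
Nr4a2, chr2:57124004-57124253: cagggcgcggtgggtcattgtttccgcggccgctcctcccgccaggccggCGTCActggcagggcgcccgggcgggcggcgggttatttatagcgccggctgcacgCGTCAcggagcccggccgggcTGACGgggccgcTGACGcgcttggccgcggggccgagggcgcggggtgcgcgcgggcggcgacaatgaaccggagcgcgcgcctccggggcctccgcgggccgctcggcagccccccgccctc
Nr4a3, chr4:48045055-48045152, the part of its window that precedes the GENCODE gene: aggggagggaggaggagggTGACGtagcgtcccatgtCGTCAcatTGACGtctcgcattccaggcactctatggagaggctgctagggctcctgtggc

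Windows of 300 bases, from 250 before to 50 after the transcript start, were searched on both strands. The core letters TGACG occurred 4 times in the window of each member. At least 4 such matches were found in 0.231% of 32851 RefSeq windows, and at least 1 in 20.8%. The letters contain a CG pair, and the member windows were rich in G and C, with 72.3% in Nr4a1, 81.7% in Nr4a2 and 64.7% in Nr4a3 against a median of 52.7% over all windows. Among the 6218 windows with at least the GC content of Nr4a3, 0.563% held 4 or more. The full palindrome TGACGTCA, found in 1.79% of windows, was in none of the 3. Nor were AAAGGTCA, the site that Nr4a proteins bind as monomers (1.51% of windows), or a CArG box, the site of serum response factor (1.63%). All 4 matches of Nr4a1 were part of the longer string TGCGTCA, a string that overlaps the core and was looked for after the sequence was seen, and 2.12% of windows held it at least 1 time. These matches describe letters in a reference sequence, and binding was not measured.

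All 3 receptors stood higher in Unc80 G/G than in Unc80 S/S bulbs. Nr4a3 had the widest gap of the family, with a mean of 45.3 CPM in Unc80 G/G and 26.3 CPM in Unc80 S/S, a ratio of 1.72 (log2 ratio 0.78). Nr4a2 had 41.6 CPM in Unc80 G/G and 30.5 CPM in Unc80 S/S, a ratio of 1.37 (log2 ratio 0.45). Nr4a1 had 148 CPM in Unc80 G/G and 110 CPM in Unc80 S/S, a ratio of 1.35 (log2 ratio 0.43). Summed over the family, the level was 234 CPM in Unc80 G/G and 166 CPM in Unc80 S/S. Of this gap of 68.1 CPM, Nr4a1 made up 37.9 CPM, Nr4a3 19.0 CPM and Nr4a2 11.2 CPM. So the member with the smallest ratio added the most CPM to the difference. In bulk tissue, fewer cells of a type and less RNA per cell cannot be told apart.

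**Figure D1:**
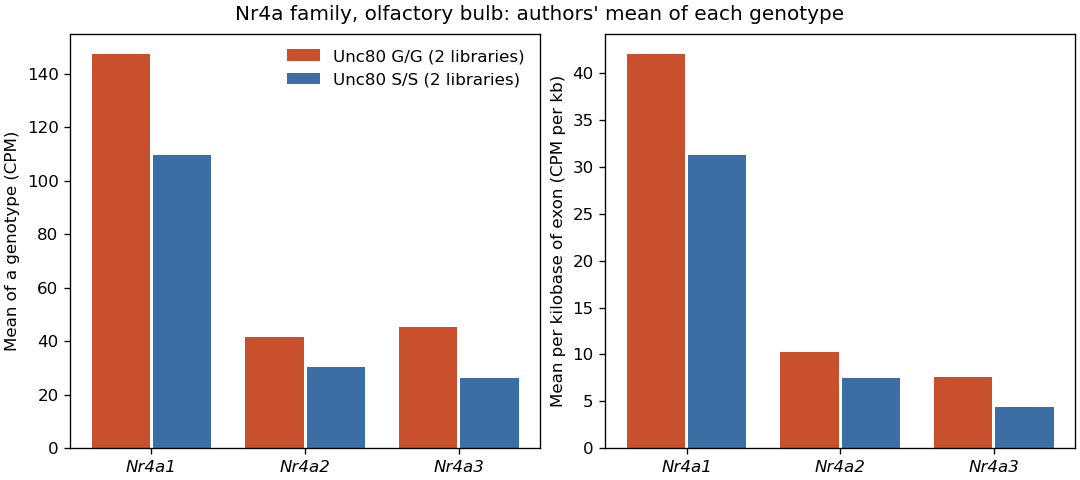
Authors' mean level of each Nr4a gene in Unc80 G/G (orange) and Unc80 S/S (blue) libraries, in CPM at left and in CPM per kilobase of annotated exon at right; bars carry no error because the table holds 1 mean per genotype. Nr4a1 is the most abundant member, and every orange bar is taller than its blue neighbor.

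Levels can be set between genes only per length. Per kilobase of annotated exon, Nr4a1 had 42.0 CPM in Unc80 G/G and 31.2 CPM in Unc80 S/S, Nr4a2 had 10.3 CPM in Unc80 G/G and 7.51 CPM in Unc80 S/S, and Nr4a3 had 7.57 CPM in Unc80 G/G and 4.39 CPM in Unc80 S/S. The order Nr4a1, Nr4a2, Nr4a3 was the same in both genotypes on this scale, also with the length of the longest coding transcript in its place. Without a correction for length, Nr4a3 stood above Nr4a2 in Unc80 G/G and below it in Unc80 S/S. As a share of the family's CPM, Nr4a3 made up 19.3% in Unc80 G/G and 15.8% in Unc80 S/S, while Nr4a1 made up 62.9% in Unc80 G/G and 65.9% in Unc80 S/S.

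From the recovered library sizes, the Unc80 G/G mean stood for about 7389 reads of Nr4a1, 2086 of Nr4a2 and 2269 of Nr4a3. The Unc80 S/S mean stood for about 5669 reads of Nr4a1, 1577 of Nr4a2 and 1361 of Nr4a3. Counting error alone then gives the log2 ratio a standard error of 0.05 for Nr4a3, 0.05 for Nr4a2 and 0.03 for Nr4a1. Those errors leave out the spread between libraries, which is unknown for the members. None of the 75-base stretches (the read length) of their transcripts occurred in a transcript of any other GENCODE gene. The longest identical stretch between the longest coding transcripts of any pair was 27 bases, in Nr4a2 and Nr4a3. No exon base of the 3 overlapped an exon of another gene on either strand.

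Ratios as far from 1 as those of the members were rare in the table. Of the 12508 genes that averaged 5 CPM or more over the genotypes, 19 (0.152%) stood over 1.3-fold higher in Unc80 G/G and 10 (0.0799%) over 1.3-fold lower. The 3 members are among those 19. Over 1.5-fold higher were 4 genes (0.032%), Nr4a3 and the immediate-early genes Atf3, Egr4 and Junb. By ratio, Nr4a3 ranked 1, Nr4a2 ranked 11 and Nr4a1 ranked 13 of the 12508. Between 20 and 200 CPM, the range that holds all members, 0.149% of 7381 genes were over 1.3-fold higher. Over all 15818 genes, whose lowest mean was 1.01 CPM, the shares were 1.42% higher and 0.929% lower, since ratios of scarce genes scatter widely. These figures place the members on the scale of the table; since that contrast chose them, nothing more is read from them. The median log2 ratio of the 12508 genes was -0.01.

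**Figure D2:**
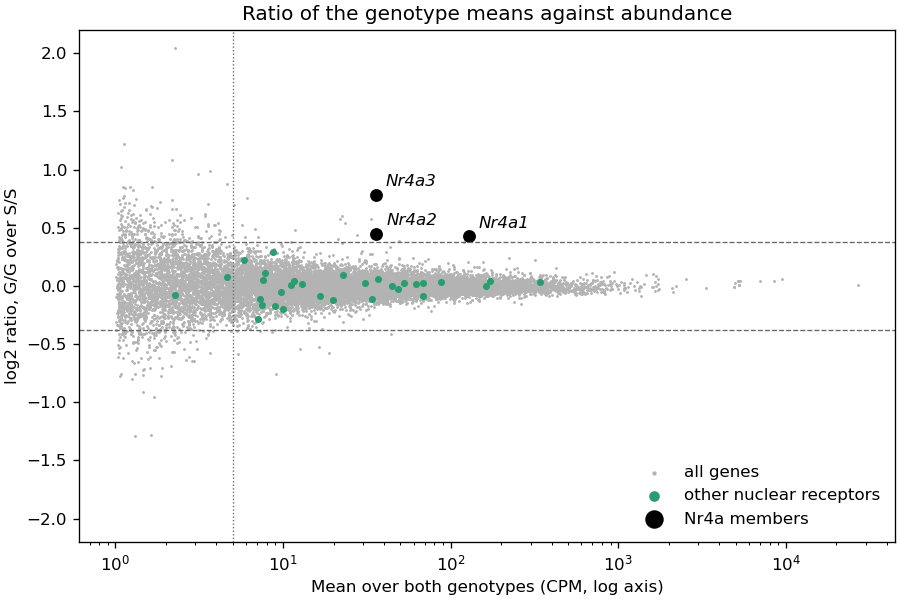
Log2 ratio of the genotype means (Unc80 G/G over Unc80 S/S) against the mean level in CPM for 15818 genes, with Nr4a members in black and 31 other nuclear receptors in green; dashed lines mark 1.3-fold and the dotted line 5 CPM. The members lie at log2 ratios of 0.43 to 0.78, and every other nuclear receptor lies between the dashed lines.

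The genes whose ratio came nearest to a member were looked for among genes of at least 5 CPM, a likeness over 2 conditions only. For Nr4a3 they were Atf3 (1.69), Egr4 (1.62), Junb (1.52), Zbed6 (1.49) and Fosb (1.49), of which all but Zbed6 are rapidly induced transcription factor genes. For Nr4a2 they were Enc1 (1.36), Nr4a1 (1.35), Col25a1 (1.34), Gm38372 (1.39) and Gm38357 (1.34). For Nr4a1 they were Col25a1, Gm38357, Enc1, Nr4a2 and Vxn, the last with a ratio of 1.32. The other genes among the 10 highest ratios were Gm17383 (1.45), Pms1 (1.44), a mismatch repair gene, and Ptgs2 (1.403), the inducible cyclooxygenase.

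Other nuclear receptors are given for comparison. Of 46 listed, 31 were in the table, and 0 of them lay past 1.3-fold in either direction, beside 1.42% of all genes higher and 0.929% lower. For a list of this size that share gives few or none, so the count says nothing particular about these receptors. Their median log2 ratio was 0.01, and 17 were higher and 14 lower in Unc80 G/G. Ratios ran between 0.82 for the vitamin D receptor gene Vdr and 1.22 for the progesterone receptor gene Pgr. Thra, a thyroid hormone receptor, had 343 CPM in Unc80 G/G and 334 CPM in Unc80 S/S. The glucocorticoid receptor gene Nr3c1 had 68.9 CPM in Unc80 G/G and 67.9 CPM in Unc80 S/S. Among the partner receptors, Rxra had 13.1 CPM in Unc80 G/G and 12.99 CPM in Unc80 S/S, and Rxrb had 44.4 CPM in Unc80 G/G and 44.5 CPM in Unc80 S/S. Rxrg, the scarcest of the partners, had 6.33 CPM in Unc80 G/G and 5.44 CPM in Unc80 S/S. Of 14 nuclear receptor coregulators, such as the coactivator gene Ncoa1 and the corepressor gene Ncor1, 0 lay past 1.3-fold (median log2 ratio -0.003), again at the share of the table.

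Genes that act upstream of the family come next, and all but Nfatc4 of those measured averaged 5 CPM or more, where 0.152% of genes lay over 1.3-fold higher and 0.0799% lower. At such shares a count of 0 in a short list is not a result about the list. Of 14 genes of the CREB and CRTC route, 0 lay past 1.3-fold, and the median log2 ratio was -0.01, equal to that of the table. Creb1 itself had 107 CPM in Unc80 G/G and 104 CPM in Unc80 S/S, and Camk4, a calcium-dependent kinase gene that acts on CREB, had 27.0 CPM in Unc80 G/G and 24.1 CPM in Unc80 S/S. Of 6 genes of serum response factor and its partners, 0 lay past 1.3-fold (median log2 ratio 0.03). Of 11 measured MEF2, NFAT and class IIa deacetylase genes, only Nfatc4 lay past it, with 1.54 CPM in Unc80 G/G and 2.03 CPM in Unc80 S/S. These are transcript levels; phosphorylation and location of the proteins were not measured.

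The immediate-early genes outside the family lay on the same side as the members. Of 32 listed, 31 were measured and 28 averaged at least 5 CPM. All 28 had a ratio over 1, where 46% of the genes at that level did, and 6 of them lay over 1.3-fold higher in Unc80 G/G, where 0.152% did. Over the 31, a further gene, Maff, lay past it, which makes 7, beside 1.42% of all genes. The median log2 ratio of the 31 was 0.21. Fosb had 39.8 CPM in Unc80 G/G and 26.8 CPM in Unc80 S/S, and Junb had 27.1 CPM in Unc80 G/G and 17.8 CPM in Unc80 S/S, so these 2 AP-1 subunit genes had ratios between those of Nr4a3 and Nr4a2. Fos had 55.5 CPM in Unc80 G/G and 42.6 CPM in Unc80 S/S. Fos (ratio 1.304) and Fosl2 (ratio 1.301) were just past the 1.3-fold limit. Dusp1 (ratio 1.29), which encodes a phosphatase of MAP kinases, was just short of it. Maff, the scarcest of the 7, had 1.76 CPM in Unc80 G/G and 1.25 CPM in Unc80 S/S. Genes that neurons also induce within minutes had smaller ratios, 1.15 for Arc, 1.18 for Egr1 and 1.03 for Npas4. The list was chosen with earlier results of these libraries known, and its direction is not independent evidence.

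**Figure D3:**
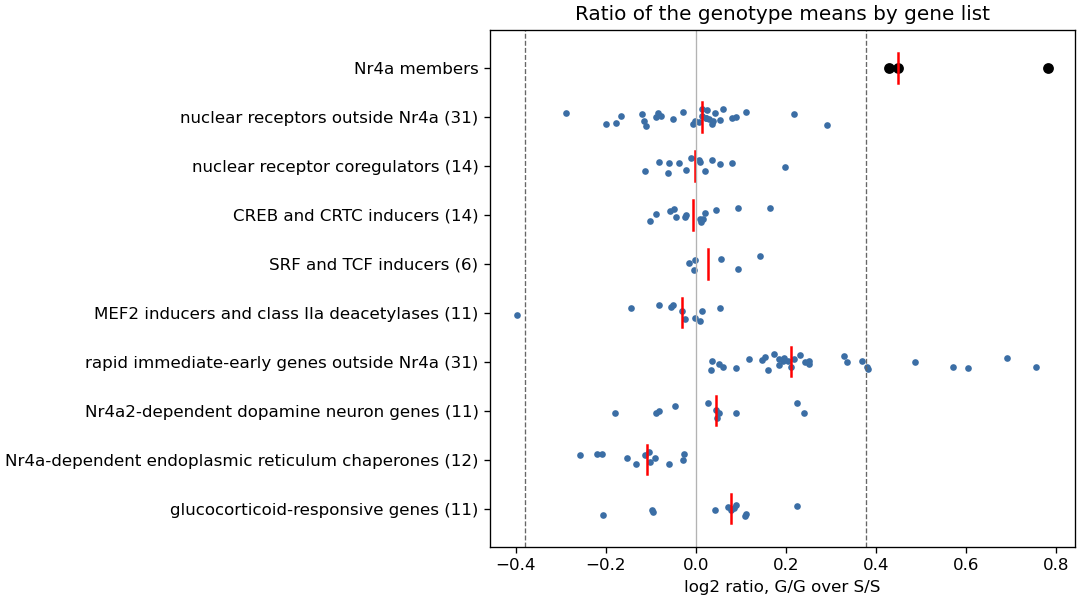
Log2 ratio of the genotype means (Unc80 G/G over Unc80 S/S) for the Nr4a members and for the genes of 9 lists, with the number measured in brackets; each dot is a gene, red bars are list medians and dashed lines mark 1.3-fold. Immediate-early genes lie above 0 throughout, and endoplasmic reticulum chaperones lie below it.

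Values per library could be read for some genes but for none of the members. A mean of 2 libraries can be split into whole reads where a pair of whole numbers gives it more closely than accident would. This worked in both genotypes for 2230 genes (14.1%). Genes without such a pair, the members among them, are not covered by the values below, and why they lack it was not tested. Of the immediate-early genes, 10 were among them. Junb, a subunit of AP-1, had 26.2 and 28.1 CPM in the Unc80 G/G libraries and 20.2 and 15.5 CPM in the Unc80 S/S libraries. Egr4, an early growth response factor gene, had 6.12 and 6.51 CPM in the Unc80 G/G libraries and 3.93 and 3.88 CPM in the Unc80 S/S libraries. Both genes had the higher values in both Unc80 G/G libraries. The libraries did not overlap in this direction for 6 of the 10 genes (also Btg2, Jun, Jund and Nfil3), where this held for 17.7% of all 2230 genes. The libraries overlapped in Ier2, with 5.80 and 7.76 CPM in the Unc80 G/G libraries and 7.29 and 4.56 CPM in the Unc80 S/S libraries.

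The libraries of a genotype differed from each other in the recovered genes. Over all 2230 the median fold between them was 1.09 in Unc80 G/G and 1.08 in Unc80 S/S. Over the 10 immediate-early genes it was 1.07 in Unc80 G/G and 1.09 in Unc80 S/S. Over the 521 recovered genes of 20 to 200 CPM it was lower, 1.045 in Unc80 G/G and 1.036 in Unc80 S/S. In that range the Unc80 S/S libraries differed 1.298-fold in Junb and 1.297-fold in Btg2, near the maximum of 1.308. Jun, Jund, Nfil3 and Ier5, also in that range, differed by no more than 1.083-fold in Unc80 S/S. In Unc80 G/G, Junb differed 1.076-fold and Btg2 1.023-fold. Among the 10 immediate-early genes the Unc80 S/S libraries differed between 1.001-fold in Jun and 1.60-fold in Ier2, and the Unc80 G/G libraries between 1.02-fold and 1.43-fold. Within Unc80 S/S, the smaller library by counted reads was the lower one for 8 of the 10 genes. Within Unc80 G/G, the smaller library was the higher one for 8. The same shares over all 2230 genes were not taken, so these counts say nothing particular about immediate-early genes. Without the smaller Unc80 S/S library the ratio was 1.35 for Junb, 1.61 for Egr4, 1.03 for Btg2 and 0.93 for Ier2, against 1.52, 1.62, 1.16 and 1.14 with all libraries. Without the smaller Unc80 G/G library, 8 of the 10 ratios were over 1. Whether the members lean on 1 library was not tested, since no value per library could be had for them.

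Genes linked to Nr4a factors elsewhere were looked up as well. In midbrain dopamine neurons Nr4a2 maintains the genes of dopamine synthesis and transport. The list of 15 genes used here also holds other genes of such neurons, such as Ret, Vip and Foxa2. Of these 15, 11 were measured, and 0 lay past 1.3-fold (median log2 ratio 0.05). That count is at the share of all genes (1.42% higher, 0.929% lower) and is no result about the list. Tyrosine hydroxylase, Th, which makes the precursor of dopamine, had 133 CPM in Unc80 G/G and 138 CPM in Unc80 S/S. The vesicle transporter gene Slc18a2 had 12.4 CPM in Unc80 G/G and 10.6 CPM in Unc80 S/S, and Ddc, the next enzyme of the pathway, had 6.49 CPM in Unc80 G/G and 5.50 CPM in Unc80 S/S. Endoplasmic reticulum chaperones, whose genes need Nr4a factors in the mouse hippocampus after learning, lay on the other side. All 12 had a ratio under 1, where 54% of genes of at least 5 CPM did, but 0 lay past 1.3-fold (median log2 ratio -0.11). Hspa5, the main chaperone of that compartment, had 247 CPM in Unc80 G/G and 275 CPM in Unc80 S/S. Creld2 had 8.72 and 9.05 CPM in the Unc80 G/G libraries and 10.5 and 10.7 CPM in the Unc80 S/S libraries. Of the 4 chaperones with recovered reads, 3 were lower in both Unc80 G/G libraries, where this held for 14.8% of recovered genes.

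The measured genes beside each member had means within 1.3-fold. Within 500 kb of the GENCODE start of Nr4a1, 9 measured genes had ratios of 0.94 to 1.14, the highest being Atg101. Near Nr4a2 the only measured gene was Gpd2, with 121 CPM in Unc80 G/G and 122 CPM in Unc80 S/S. Near Nr4a3, 5 measured genes had ratios of 0.96 to 1.01, among them Stx17 with 35.01 CPM in Unc80 G/G and 34.8 CPM in Unc80 S/S. Unc80, the knock-in gene, lies on chromosome 1, away from all members, and had 633 CPM in Unc80 G/G and 661 CPM in Unc80 S/S.

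**Figure D4:**
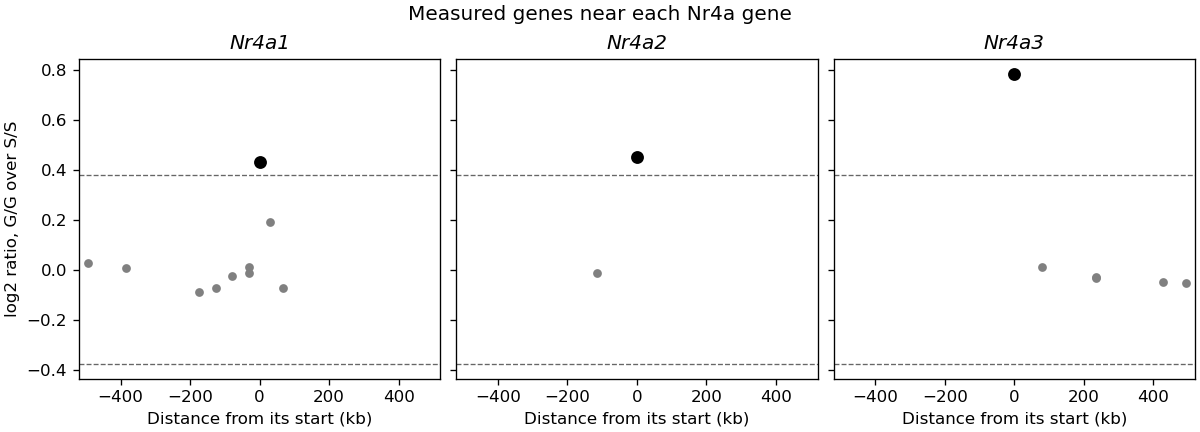
Log2 ratio of the genotype means (Unc80 G/G over Unc80 S/S) for measured genes within 500 kb of each Nr4a gene (grey) and for the member itself (black), against the distance in kb from the member's start, positive in its direction of transcription. The members stand above the upper dashed line (1.3-fold), and all 15 neighboring genes lie between the dashed lines. Of all genes, 1.42% lie above these lines and 0.929% below, so none was likely among so few.

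Markers of the cells in or beside the bulb were summed in each genotype. The 12 bulb interneuron markers summed to 4633 CPM in Unc80 G/G and 4624 CPM in Unc80 S/S, with 0 past 1.3-fold. The 10 markers of claustrum and cortical layer 6b, regions rich in Nr4a2, summed to 238 CPM in Unc80 G/G and 244 CPM in Unc80 S/S. The 10 microglial markers summed to 299 CPM in Unc80 G/G and 295 CPM in Unc80 S/S. Choroid plexus markers summed to 175 CPM in Unc80 G/G and 174 CPM in Unc80 S/S, of which Enpp2 alone gave 128 CPM in each. Of 9 measured, 4 were over 1.3-fold higher, beside 1.42% of all genes, and each of the 4 averaged under 5 CPM. Ttr led them, with 3.64 CPM in Unc80 G/G and 0.88 CPM in Unc80 S/S. Its libraries had 4.62 and 2.67 CPM in Unc80 G/G and 1.28 and 0.48 CPM in Unc80 S/S. Of the 3 lower markers, Aqp1 was the most abundant, with 27.0 CPM in Unc80 G/G and 32.9 CPM in Unc80 S/S. The 7 measured markers of olfactory sensory neurons, the cells whose axons enter the bulb, summed to 274 CPM in Unc80 G/G and 255 CPM in Unc80 S/S. Of these 7, 5 were higher, all at 5 CPM or more, where 46% of genes were higher. All 7 neuroblast markers were higher, with sums of 1334 CPM in Unc80 G/G and 1305 CPM in Unc80 S/S. The 5 of them at 5 CPM or more, where 46% of genes were higher, had ratios of only 1.00 to 1.06. Mki67 alone lay past 1.3-fold, with 3.08 CPM in Unc80 G/G and 2.08 CPM in Unc80 S/S. The 8 mural cell markers summed to 147 CPM in Unc80 G/G and 149 CPM in Unc80 S/S. Of these 8, 6 were lower (median log2 ratio -0.19). At 5 CPM or more 3 of 5 were lower, where 54% of genes were. The scarce Acta2 had 2.93 CPM in Unc80 G/G and 4.36 CPM in Unc80 S/S. Rgs5, the most abundant, was higher, with 89.9 CPM in Unc80 G/G and 84.3 CPM in Unc80 S/S. Of 8 meningeal fibroblast markers 6 were lower (median log2 ratio -0.15), among them Lum with 2.51 CPM in Unc80 G/G and 3.65 CPM in Unc80 S/S. At 5 CPM or more 5 of 7 were lower, where 54% of genes were. Of 8 markers of blood monocytes and neutrophils 3 were measured, and 2 were over 1.3-fold higher, beside 1.42% of all genes. S100a9 had 2.66 CPM in Unc80 G/G and 1.68 CPM in Unc80 S/S. Cd52 had 1.32 CPM in Unc80 G/G and 0.97 CPM in Unc80 S/S, and its libraries overlapped. S100a9 and Cd52 averaged under 5 CPM. Lyz2, the most abundant, was lower, with 15.4 CPM in Unc80 G/G and 16.4 CPM in Unc80 S/S. Over all 16 marker lists, 0 of 101 genes of at least 5 CPM lay past 1.3-fold. At that level 0.152% of genes lay over it higher and 0.0799% lower, so that count is what the table gives. Of 11 measured genes that respond to glucocorticoids, the hormones of stress, 0 lay past it (median log2 ratio 0.08), also at the share of all genes. The part of these cell types in the ratios of the members was not tested.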

How the data were processed

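Olfactory bulb RNA of Unc80 G/G and Unc80 S/S mice was sequenced as 4 libraries, 2 per genotype, with 75-base paired reads. The study's methods name a stranded total RNA kit and the labels an mRNA kit, which could not be settled. The authors trimmed and aligned reads to GRCm38 (mm10 in the submitters' processing notes) with Partek. For the annotation, counting and normalization, the sources used here give nothing. The deposited files give the total read count of each library and, for 15818 genes, the mean of each genotype in CPM, which the authors computed. The table's p-values, adjusted p-values, ratios and fold changes are the authors' own comparison and were not used.

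Ratios were taken as the Unc80 G/G mean over the Unc80 S/S mean, with no pseudocount, and log2 transformed. With 1 mean per genotype and members selected on this contrast, no test was run. A fold of 1.3 was the limit for counts, with 1.5 as a second level, and 5 CPM was the abundance limit. Members and lists were chosen with earlier results of these data known. Genes named are the members, the 10 highest ratios of at least 5 CPM and the 5 nearest to each member. List genes of at least 5 CPM past 1.3-fold are also named, with further list genes as examples.

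Library sizes were fitted so that each mean, less an offset of 0.0001 CPM, equals whole reads in 2 libraries. They came to 25345718 and 24738078 counted reads for Unc80 G/G and 26479648 and 25238203 for Unc80 S/S. Splits were kept where under 0.0001 other splits were expected by accident; the procedure was tested on simulated data. No split was found for the 3 members. The split does not show which labelled replicate a library is. GENCODE M21 held a single gene for 15593 (98.6%) of the symbols; 22 symbols turned into dates were left unnamed. Promoters came from RefSeq for all 3 members. Intervals cover counting error only. Python 3.11.15, numpy 2.4.6, pandas 2.3.3 and matplotlib 3.10.9 were used.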

Additional observations from a re-analysis of the deposited data

How the results depend on the processing

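The log2 ratios of Nr4a1, Nr4a2 and Nr4a3 kept their direction with a pseudocount of 1 CPM and with centring on the median gene. They also kept it with scaling to genes outside the 100 most abundant. The direction could not have changed under these settings. Centring and scaling shift log2 ratios by only -0.006 and -0.003, and a pseudocount cannot move a ratio across 1. Each ratio moved by less than 0.041 in log2 units. That is the median SD between libraries of a genotype over 521 other genes of 20 to 200 CPM, averaged over the genotypes. The counts of genes past 1.3-fold were 225 higher and 147 lower with no abundance limit. A limit of 1 CPM gave the same counts because the lowest mean of any gene was 1.01 CPM, so that setting tests nothing. With a pseudocount of 1 CPM, 14 genes of at least 5 CPM were higher and 6 lower. At 1.5-fold, 4 genes were higher and 2 lower, and 3 immediate-early genes were higher. The MEF2 list had 0 lower at 1.5-fold and 0 lower at 5 CPM. In an alternative chosen after seeing the data, leaving out each library in turn, 2 to 5 of the 10 recovered immediate-early genes were over 1.3-fold higher and 8 to 10 had a ratio over 1. No paired analysis was possible because the means and the recovered reads carry no replicate number. Leaving out a library could not be run for the members, whose values per library were not recovered, so their spread between libraries is unknown.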
